A study of Mus musculus with 6 samples.

Results

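The imprinted genes *H19*, *Igf2*, *Igf2r*, *Cdkn1c*, *Peg3*, *Mest*, *Plagl1*, *Ndn*, *Grb10* and *Snrpn*, which lie outside the Dlk1-Dio3 cluster, were examined in mouse granulosa cells (GCs) exposed to androgen. The 10 genes were a list of names, drawn up with earlier results of these data known, and they were looked up among the 16300 genes of the deposited table. Of these, 9 had a row and *H19* was not analysed here. By the parent whose copy is usually active, 4 of the 10 are maternally expressed (*H19*, *Igf2r*, *Cdkn1c*, *Grb10*) and 6 are paternally expressed (*Igf2*, *Peg3*, *Mest*, *Plagl1*, *Ndn*, *Snrpn*). The GCs came from wild type C57BL/6J mice of 8 to 9 weeks, were pooled from several animals and were grown as primary cultures. The 3 control cultures received medium and the 3 DHT cultures received dihydrotestosterone, an androgen that is not converted to estrogen, at 25 nM, both for 24 h. A control library and a DHT library with the same number were not taken as a pair. A pool of animals carries no measure of the spread between animals, so the p-values below measure the spread between cultures.

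Imprinted genes are transcribed mainly from the copy inherited from one parent, because methylation laid down in the egg or the sperm marks a control region of the cluster on 1 of the 2 parental copies. The marked copy may be the silent or the active one, and at *Igf2r* the methylated control region lies on the active maternal copy. The members act largely on growth. IGF2 is a growth factor and IGF2R is the receptor that carries it to the lysosome, so the pair is a textbook case of oppositely imprinted genes with opposed actions. Which parental copy the RNA came from was not measured here, so every value is the sum of both copies.

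Reads assigned to genes, estimated from the step between values, ranged from 36111177 to 41928585 per library, and the 10 most abundant genes took 5.38% to 5.91% of the normalized counts. Of 8 granulosa markers listed, 7 were tested and 2 passed, both lower with DHT. *Foxl2* (granulosa identity) was at 2433 to 2588 normalized counts in control GCs and *Inha* (an inhibin subunit) at 50626 to 60095, while *Cyp19a1* (aromatase) had no row. Both *Inha* (log2 fold change -0.61, limma adjusted p = 0.0016) and *Foxl2* (-0.15, adjusted p = 0.049) fell with DHT. Both measured smooth muscle markers rose, *Acta2* by 0.76 on the log2 scale and *Myh11* by 0.67, and the summed level of that list went from 4548 to 6692 in control GCs to 8545 to 10130 with DHT. No measured marker of fibroblasts (4 of 4 tested), endothelium (2 of 3), leukocytes (2 of 3), theca cells (1 of 3) or oocytes (3 of 3) passed the test. All 4 fibroblast markers had negative log2 fold changes (median -0.31, *Dcn* at -1.05 with adjusted p = 0.10), with a summed level of 1534 to 1716 in control and 1219 to 1601 with DHT. The theca marker *Ptch1* was lower in every DHT library than in every control (-0.19, adjusted p = 0.064). The oocyte list summed to 216 to 443 in control and 101 to 360 with DHT. Per kb of exon, its *Gdf9* was at 76.3 in control GCs, above 5 of the 9 members. DHT 2 stood apart, with *Zp3* listed at 0 and 45 genes at 0, against 0 to 5 in the other libraries. The part of these shifts in the results below was not tested. In bulk RNA, fewer cells of a type and less RNA per cell cannot be told apart.

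The members differed widely in level. Per kb of exon, the control level of *Igf2r* was 825 ± 10.6 normalized counts (SD, n = 3). *Igf2r* lay at percentile 85.2 of the tested genes with a known length. It was followed by *Snrpn* at 427 ± 14.7, *Ndn* at 289 ± 24.0 and *Plagl1* at 210 ± 36.3. These 4 genes sat in the upper part of the distribution (percentiles 55.7 to 85.2), and their control libraries did not overlap with those of the next gene in the order. *Mest* at 64.7 ± 6.86 and *Grb10* at 58.4 ± 8.76 overlapped and were not separated by their spread. *Peg3* at 48.0 ± 1.82 and *Cdkn1c* at 23.1 ± 5.14 came next. *Igf2* was last at 2.54 ± 0.10, at percentile 1.81. The lengths include exons shared with other genes on the same strand, 62.8% for *Igf2* and 27.3% for *Snrpn*, and the levels were not corrected for this.

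**Figure D1:**
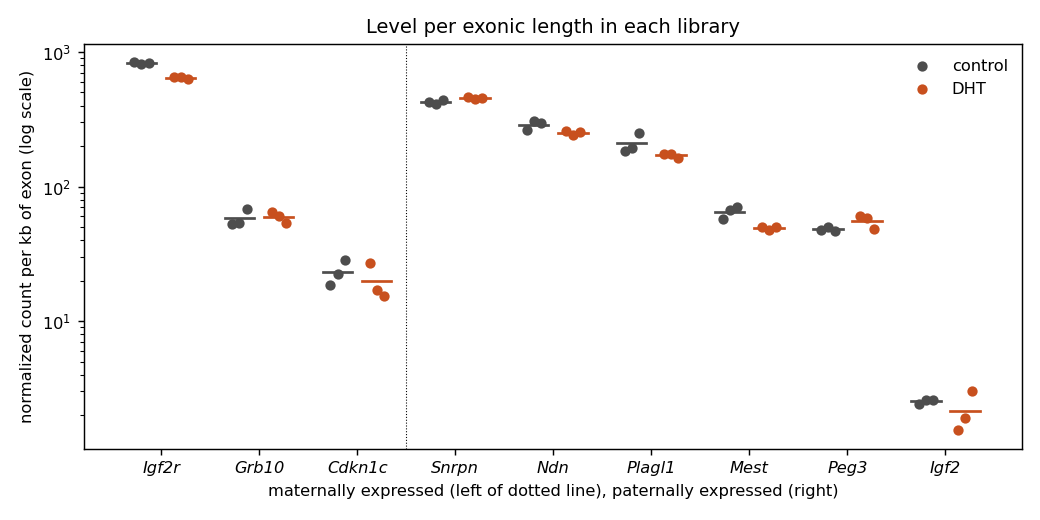
Normalized count per kb of exon (log axis) of the 9 measured members in each of the 3 control (grey) and 3 DHT (orange) libraries, with bars at the group means. *Igf2r* had the highest level in both groups (825 in control, 642 with DHT) and *Igf2* the lowest (2.54 and 2.16).

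Androgen was followed by lower RNA of 1 maternally expressed member, *Igf2r*, and 1 paternally expressed member, *Mest*. With an adjusted p of at most 0.05, 2 of the 9 members passed the test, both lower in DHT-treated GCs. The call of *Igf2r* held in all 14 alternative settings and that of *Mest* was lost in 8. Across the 16292 genes tested, 11.2% passed in either direction, 6.52% higher and 4.66% lower. The other 7 members did not pass. The median log2 fold change of the 9 was -0.24 (range -0.39 to 0.20) against -0.0052 over all genes tested. That median is the value of *Cdkn1c*, which did not pass, and without control 3 the median was -0.14. None of the members exceeded a log2 fold change of 1 in size together with the p threshold, which 1.31% of all genes tested did (0.908% higher and 0.399% lower).

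*Igf2r* (ENSMUSG00000023830) encodes the cation-independent mannose 6-phosphate receptor, which removes IGF2 and sorts lysosomal enzymes. It lies on the minus strand of chromosome 17 at 12682406 to 12769664 (GRCm38), with 9308 exonic bases. The normalized count was 7789, 7593 and 7664 in control GCs 1 to 3 and 6040, 6070 and 5814 in DHT-treated GCs 1 to 3. The groups were far apart: every DHT library was below every control library. The log2 fold change was -0.36 (SE 0.035, 95% interval -0.44 to -0.28, limma adjusted p = 0.00037), a change of -22.2% (-26.4% to -17.9%). By p-value *Igf2r* was number 107 of the 16292 genes. Over those settings the adjusted p-values ran from 0.00032 to 0.016.

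The *Igf2r* promoter window of RefSeq (chr17:12769657-12769956, GRCm38.p6, minus strand, written in the direction of the gene) is shown because this gene gave the firmest change. CpG dinucleotides, the sites that imprinting methylates, are in capitals.
Igf2r: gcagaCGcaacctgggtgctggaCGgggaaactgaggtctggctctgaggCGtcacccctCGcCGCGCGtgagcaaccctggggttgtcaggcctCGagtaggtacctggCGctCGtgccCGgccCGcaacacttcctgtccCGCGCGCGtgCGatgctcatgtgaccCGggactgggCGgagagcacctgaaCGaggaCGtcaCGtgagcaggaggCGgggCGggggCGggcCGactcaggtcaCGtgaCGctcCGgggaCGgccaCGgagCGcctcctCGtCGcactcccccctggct
The window holds 34 CpG, against a median of 7 (quartiles 3 and 20) over 32851 windows of the same length. The androgen receptor half-site AGAACA, searched on both strands, does not occur in it, whereas 19% of all windows hold it. The inverted pair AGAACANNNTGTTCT, which contains the half-site, is not in it either and was found in 3 windows in all. These counts describe letters in 1 short window per start site and say nothing of binding elsewhere.

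*Airn* (ENSMUSG00000078247) is the paternally expressed long noncoding RNA that runs antisense through the start of *Igf2r* and is known to silence the paternal *Igf2r* copy in many tissues. In the annotation it spans 12741311 to 12860136 on the plus strand of chromosome 17, beginning in an *Igf2r* intron. Its normalized count was 90.04, 86.4 and 63.9 in control GCs and 40.1, 57.8 and 38.1 with DHT, with no overlap. *Airn* thus fell together with *Igf2r* (log2 fold change -0.82, SE 0.22, 95% interval -1.31 to -0.32, limma adjusted p = 0.045). The call was lost in 6 of 14 settings, where leaving out control 1, control 2, DHT 1 or DHT 3 gave adjusted p-values of 0.12 to 0.15. The count covers only the 3597 annotated exonic bases of *Airn*. The genes *Gm16574* and *Gm7162*, which overlap its span, were at -0.83 (limma adjusted p = 0.25) and -0.85 (0.17). Their groups overlapped, at control means of 18.6 and 23.3 normalized counts. *Airn* and *Igf2r* share 0 exonic bases, but 114 exonic bases of *Airn* (3.17%) lie in *Igf2r* introns. Whether the counting used strand is not given in the sources used here, and the share of unspliced *Igf2r* reads among those counted for *Airn* was not tested.

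**Figure D2:**
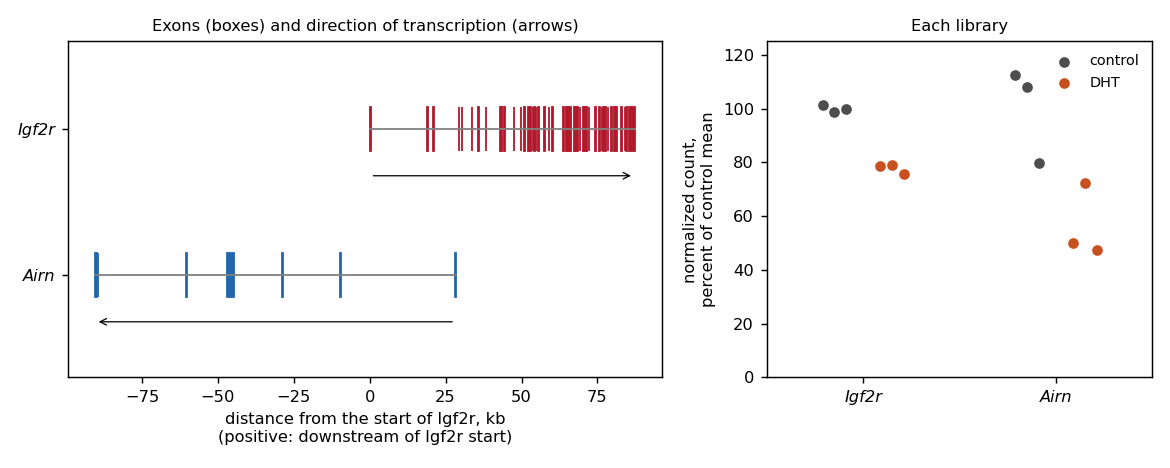
Left, exons (boxes) and direction of transcription (arrows) of *Igf2r* and *Airn*, by distance in kb from the start of *Igf2r*. Right, normalized count in each library as a percentage of the control mean, where all 3 DHT libraries (orange) lie below the 3 controls (grey) for both genes.

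*Cdkn1c* (p57, a cyclin-dependent kinase inhibitor) and *Grb10* (an adaptor that restrains insulin and IGF1 receptor signalling) are the other measured maternally expressed members, and neither passed the test. *Cdkn1c* was at 37.6, 45.5 and 58.4 normalized counts in control GCs and at 54.8, 34.9 and 31.6 with DHT. The groups overlapped, and the log2 fold change of -0.24 (SE 0.26, limma adjusted p = 0.63) had a 95% interval of -0.83 to 0.35. It rested on single libraries, at -0.47 without DHT 1 and -0.074 without control 3. *Grb10* was at 481, 489 and 623 in control GCs and at 583, 551 and 485 with DHT. Its groups overlapped as well (0.03, SE 0.11, interval -0.22 to 0.28, adjusted p = 0.90), and its sign turned when control 1, control 2 or DHT 1 was left out. Part of the *Cdkn1c* exons (30.7%) is shared with the antisense gene *Gm44732*.

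*Mest* (ENSMUSG00000051855) encodes an enzyme of the alpha/beta hydrolase family and is a paternally expressed gene of embryonic mesoderm and fat. It lies on the plus strand of chromosome 6 at 30723547 to 30748465. The normalized count was 225, 265 and 276 in control GCs and 198, 189 and 197 with DHT. The DHT libraries lay close together and all below the lowest control. *Mest* fell by 0.39 on the log2 scale (SE 0.10, 95% interval -0.62 to -0.15, limma adjusted p = 0.047). That p sits at the threshold: the call was lost in 8 of 14 settings, with adjusted p-values of 0.023 to 0.16 over all of them. Leaving out control 2, control 3 or any 1 of the 3 DHT libraries ended it (0.099 to 0.16). In addition, 912 exonic bases of *Mest* (23.1%) overlap *Copg2* on the other strand, which was at 2761 to 2942 in control and 2506 to 2600 with DHT (log2 fold change -0.14, adjusted p = 0.054).

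The RefSeq promoter window at the CpG-rich start of *Mest* (chr6:30737800-30738099, GRCm38.p6, plus strand) is shown for comparison with *Igf2r*, again with CpG in capitals.
Mest: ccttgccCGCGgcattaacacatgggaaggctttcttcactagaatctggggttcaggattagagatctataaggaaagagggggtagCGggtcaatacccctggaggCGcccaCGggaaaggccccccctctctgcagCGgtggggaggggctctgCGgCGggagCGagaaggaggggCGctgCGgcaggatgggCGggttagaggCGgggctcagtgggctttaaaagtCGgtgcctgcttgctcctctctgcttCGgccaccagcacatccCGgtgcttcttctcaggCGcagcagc
It holds 17 CpG and no half-site. An upstream *Mest* start (chr6:30733256-30733555) has 8 CpG and no half-site. An intron of *Mest* also hosts a microRNA, of which both mature arms are given with the seed (bases 2 to 8) in capitals, since they share the host's transcript.
miR-335-5p: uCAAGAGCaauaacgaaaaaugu
miR-335-3p: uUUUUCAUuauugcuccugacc
Small RNAs were not measured, so the fall of *Mest* RNA carries no value for the microRNA.

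The other 5 paternally expressed members did not pass the test. *Plagl1* (ZAC1), a zinc finger factor that regulates a network of imprinted genes, was at 1436, 1521 and 1965 in control GCs and at 1368, 1364 and 1282 with DHT. *Ndn* (necdin), a growth suppressor known from neurons, was at 968, 1140 and 1090 in control GCs and at 949, 890 and 942 with DHT. In both genes the DHT libraries lay below all controls. The log2 fold changes were -0.28 for *Plagl1* (SE 0.10, 95% interval -0.51 to -0.05, limma adjusted p = 0.12) and -0.20 for *Ndn* (SE 0.068, interval -0.35 to -0.045, adjusted p = 0.10). For *Plagl1* control 3 stood above the other controls, and without it the log2 fold change was -0.14. Leaving out control 1 brought *Ndn* past the threshold (adjusted p = 0.027).

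*Peg3*, a zinc finger gene tied to growth and maternal behaviour, was at 630, 667 and 622 in control GCs and at 800, 782 and 639 with DHT. DHT 1 and 2 were above all controls and DHT 3 was among them (log2 fold change 0.20, SE 0.088, 95% interval 0.0044 to 0.40, limma adjusted p = 0.19). Without DHT 3 the log2 fold change was 0.31 and the limma adjusted p was 0.039. *Snrpn*, which encodes a spliceosomal protein of the Prader-Willi region, was at 917, 892 and 955 in control GCs and at 994, 959 and 982 with DHT. Its DHT libraries were just above the controls (0.09, SE 0.050, interval -0.03 to 0.20, adjusted p = 0.33). Of its exons, 27.3% are shared with *Gm38393* on the same strand, and how reads in that part were counted was not tested.

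*Igf2* was near the lower limit of the data, at 13.9, 14.9 and 14.8 normalized counts in control GCs and 8.81, 10.9 and 17.4 with DHT. In reads estimated from the step between values, the 3 control libraries held 46 (exact Poisson 95% interval 33.7 to 61.4). The 3 DHT libraries held 35 (24.4 to 48.7), and both intervals cover counting error only. The groups overlapped, and a difference was not detectable at this depth (log2 fold change -0.26, SE 0.32, 95% interval -0.99 to 0.46, limma adjusted p = 0.66). Leaving out 1 library moved the estimate between -0.52 (without DHT 3) and -0.067 (without DHT 1). Of the exonic length, 62.8% is shared with the read-through gene *Gm49394* on the same strand. The ligand was thus at 14 to 16 reads per control library, the fewest of the 9 members.

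**Figure D3:**
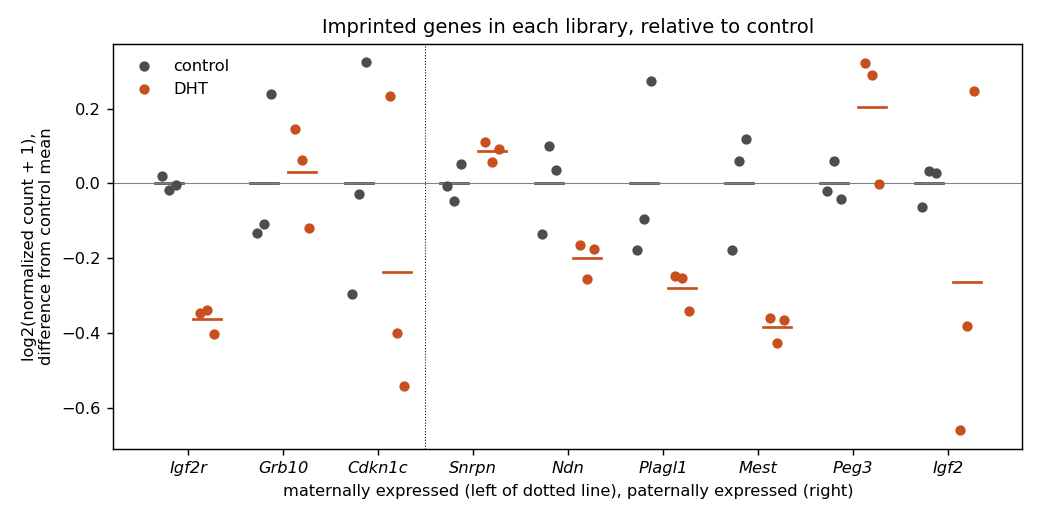
Difference of log2(normalized count + 1) from the control mean for each measured member in the 3 control (grey) and 3 DHT (orange) libraries, with bars at group means. *Igf2r*, *Mest*, *Plagl1* and *Ndn* have all DHT libraries below all controls, *Snrpn* has them above, and the other 4 overlap.

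Counted by library, 5 of the 9 members had groups without overlap, 4 lower (*Igf2r*, *Mest*, *Plagl1*, *Ndn*) and 1 higher (*Snrpn*), where 30.6% of all genes tested had none. Control 3 was the highest control for 5 of the 9, and for 35.2% of all genes.

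Beyond the members, 23 of 33 other listed imprinted genes were tested, and 3 passed (13.0%, near the 11.2% of all genes tested). The 3 are among the 18 paternally expressed genes of that list, and none of its 5 maternally expressed genes passed, a difference that was not tested. One of them is *Airn*. *Nap1l5*, a nucleosome assembly protein gene inside an intron of *Herc3*, was at 311, 538 and 674 in control GCs and 1239, 869 and 933 with DHT. It was the only listed imprinted gene with a log2 fold change above 1 (1.05, SE 0.25, limma adjusted p = 0.028), while *Herc3* was at 0.09 (adjusted p = 0.36). The fold change was 0.73 without control 1, where the adjusted p was 0.021, and 0.90 without DHT 1. *Snhg14*, the long RNA that follows *Snrpn* and hosts small nucleolar RNAs, rose from 414, 385 and 452 to 507, 490 and 519 (0.28, SE 0.077, adjusted p = 0.0497). *Nap1l5* lost its call in 6 of 14 settings, among them without control 2 or any 1 of the DHT libraries (adjusted p 0.056 to 0.090). *Snhg14* lost its call in 10, among them without any 1 library other than control 3 (0.11 to 0.16). The median over the 23 was 0.045.

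Of 18 listed genes that share a cluster with a member, 9 were tested and the other 9 were not analysed here. *Airn* and *Snhg14* passed, and the other 7 tested did not. Near *Cdkn1c*, the noncoding *Kcnq1ot1* was at 0.10 on the log2 scale (limma adjusted p = 0.49), the channel gene *Kcnq1* at -0.013 (0.99) and the lipid transfer gene *Osbpl5* at 0.12 (0.17). Near *Ndn* and *Snrpn*, *Mkrn3* was at -0.0038 (0.99), *Peg12* at -0.26 (0.49) and *Ube3a*, a ubiquitin ligase gene, at -0.04 (0.68). Leaving out 1 library moved *Peg12* between -0.43 (without control 2) and -0.15 (without control 1), and *Ube3a* between -0.080 (without control 2) and -8.2e-05 (without control 3). Beside *Peg3*, the maternally expressed *Zim1* was at 23.7, 33.5 and 17.6 in control GCs and 58.7, 41.5 and 41.4 with DHT, without overlap (0.92, SE 0.28, adjusted p = 0.066). Without control 2 its adjusted p was 0.042.

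Of 11 factors that set or keep imprints, 1 passed the test (9.09%, against 11.2% of all genes tested). *Zfp57*, a zinc finger protein that protects methylated control regions, fell from 605, 610 and 565 in control GCs to 497, 469 and 509 with DHT (log2 fold change -0.27, SE 0.066, limma adjusted p = 0.031). The call was lost in 7 of 14 settings, among them without control 1, control 2 or any 1 of the DHT libraries (adjusted p 0.069 to 0.13). The median of the 11 was -0.066. DNA methylation was not measured.

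**Figure D4:**
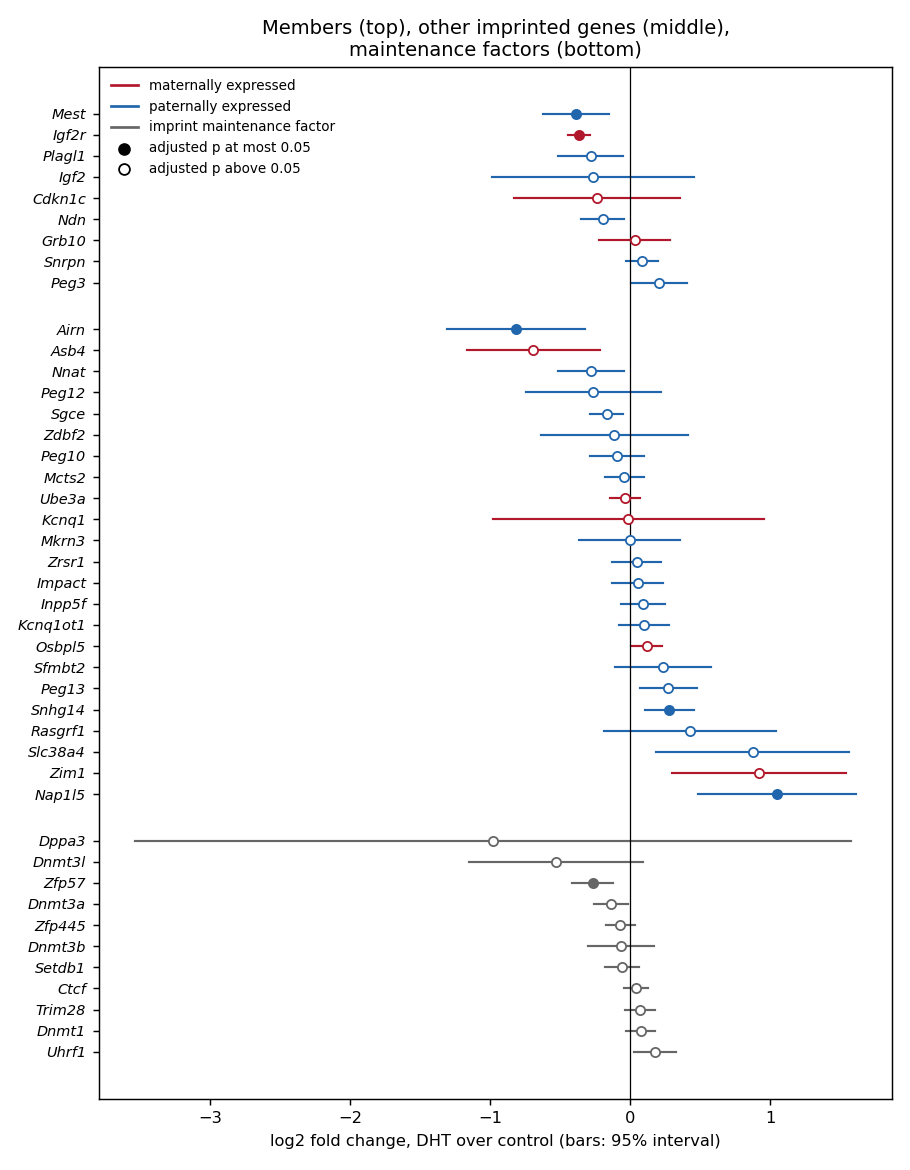
Log2 fold change of DHT over control with its 95% interval for the 9 measured members (top), 23 other imprinted genes (middle) and 11 maintenance factors (bottom), where filled points have an adjusted p of at most 0.05. Of the members, *Igf2r* (-0.36) and *Mest* (-0.39) are filled, and the *Igf2r* interval is the narrowest of the 9.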

How the data were processed

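RNA-seq libraries came from 3 control and 3 DHT-treated GC cultures, 6 in all. The strand setting in counting is not given in the sources used here. Some labels describe the material as ovary and others as granulosa cells. Groups came from the treatment label. Per the labels and methods, the authors trimmed reads with Trimmomatic 0.36, aligned with STAR 2.5.2b and counted genes with featureCounts of Subread 1.5.2. The deposited values are a signal unit, counts divided by a size factor of each library by the authors with DESeq2. The smallest mean in the table was 9.83, so lower genes are not analysed here. Log2 fold change and p-value columns that the authors deposited hold their own comparison and were not used. Each library's values were whole multiples of 1 step (tolerance 0.01), which gave the reads per library.

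Here, genes averaging 10 or more over the libraries (16292) were kept, and limma (3.58.1, under R 4.3.3) was run on log2(value + 1), unpaired, letting the variance follow intensity, with Benjamini-Hochberg adjustment. Fold changes are on that scale and understate low genes. The method was tested on simulated data. Annotation was GENCODE on GRCm38 and promoter windows came from RefSeq (GRCm38.p6), which matched 8 of 10 members. Named genes are all members, listed genes that passed, tested cluster neighbours, and cell markers from the marker list, some of which did not pass. *Copg2*, *Herc3* and overlapping genes were named after their values were seen. Members and lists were chosen with earlier results of these data known. With 3 against 3, an exact permutation test could not go below p = 0.1.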

Additional observations from a re-analysis of the deposited data

How the results depend on the processing

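*Igf2r* kept its direction and its call in all 14 settings. Genes past both thresholds numbered 213, and 131 with a mean of at least 50 (fewer genes tested). Genes past the adjusted p alone numbered 1823, with 804 by limma without the trend and 990 with the replicate block. Members that passed numbered 2, and 1 without the trend, with the replicate block or after quantile normalization, which was chosen after seeing the data. Other imprinted genes that passed numbered 3, and 0 without the trend or with the replicate block. Maintenance factors numbered 1, and 0 in those 2 settings. Leaving out 1 library at a time gave 138 to 286 genes past both thresholds, 931 to 2094 past the adjusted p, 1 to 3 members, 0 to 4 other imprinted genes and 0 to 1 factors. The cause was not tested.

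The sign turned on leaving out 1 library for *Grb10* (-0.035 to 0.15), *Kcnq1ot1* (-0.00065 to 0.15), *Kcnq1* (-0.47 to 0.31) and *Mkrn3* (-0.097 to 0.049), none of which passed the test. Same-numbered libraries deviated with correlations of 0.0058, 0.067 and -0.24, and not every library correlated best with its own number. With 3 libraries per group, these correlations cannot decide whether the numbers pair them.

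Count-based tests, TMM and recomputed size factors were not run on the estimated reads, so how far the calls depend on them is not known. The ratio of *Igf2* to *H19* could not be computed because *H19* was not analysed here. *Igf2*, *Cdkn1c*, *Kcnq1*, *Zim1* and *Peg12* have no value with a mean of at least 50. Depth limits what can be said of *Igf2*. Scaling to equal totals moved the median of all genes to -0.035.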
